A study of Mus musculus with 4 samples.

Results

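Of the 4311 methylated Pontin peaks called in mouse embryonic fibroblasts (MEFs) under glucose starvation, 465 were distal peaks between genes. The centre of such a peak lay more than 2.5 kb from every transcription start site (TSS) of GENCODE vM21 and inside no annotated transcript of any biotype, on genome build GRCm38 (mm10). They made up 10.8% of all peaks (95% Wilson interval 9.90 to 11.7) and 50.1% of the 929 peaks that were over 2.5 kb from a TSS. Of the other peaks, 3382 were proximal (within 2.5 kb of a TSS), 430 were distal in introns and 34 were distal in exons.

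The series holds 4 libraries of MEFs, the chromatin immunoprecipitation (ChIP) with an antibody to methylated Pontin (mePontin) and the input, each in normal media and under glucose starvation. The values below come from the starved ChIP library alone, and those relative to input were computed by the authors from that library and an input, which may be of starved or of fed cells, since its name in the file header does not say which. No value of the ChIP in normal media was analysed here, so nothing below compares starved with fed cells. Each condition has 1 library and no replicate. All intervals therefore cover counting error within 1 library, and a peak is not a replicate of another.

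Pontin (RUVBL1) is an AAA+ ATPase that works with Reptin in chromatin-remodelling and acetyltransferase complexes such as INO80, SRCAP and TIP60. The study examined Pontin methylated by the arginine methyltransferase CARM1 as a partner of the transcription factor FOXO3a at autophagy genes. Sequence between genes holds enhancers, which act on promoters at a distance and are marked by acetylated and monomethylated histones, as well as insulators bound by CTCF and unannotated promoters. No histone mark was analysed here, so which of these a peak overlaps was not examined.

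The central 200 bp of 9 of the 465 peaks are shown because the results refer back to them. They are the 3 peaks with the highest tag count, the peaks with the highest fold over input and the highest focus ratio, a peak 217.9 kb from any TSS that is rich in repeats, the peak beside the lysosomal gene Psap, and the peaks with the highest tag count among those with an ETS or with an AP-1 word. The Mos to Plag1 peak was also the highest of those with an SP/KLF word. The sequences are the plus strand of GRCm38, 5′ to 3′. Capitals mark the motif words that were searched on both strands and are spelled out with the motif results.
Wnt7b to Ppara, chr15:85635101-85635300: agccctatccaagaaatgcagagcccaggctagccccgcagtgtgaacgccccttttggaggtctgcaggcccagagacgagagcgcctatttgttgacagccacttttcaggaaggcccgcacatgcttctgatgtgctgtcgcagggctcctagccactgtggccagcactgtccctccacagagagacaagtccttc
Krt78 to Krt8, chr15:101977043-101977242: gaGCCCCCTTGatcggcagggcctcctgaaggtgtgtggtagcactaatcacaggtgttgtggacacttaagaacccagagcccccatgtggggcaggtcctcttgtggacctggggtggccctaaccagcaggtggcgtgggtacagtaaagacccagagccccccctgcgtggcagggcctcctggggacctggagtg
Sesn2 to Atpif1, chr4:132514346-132514545: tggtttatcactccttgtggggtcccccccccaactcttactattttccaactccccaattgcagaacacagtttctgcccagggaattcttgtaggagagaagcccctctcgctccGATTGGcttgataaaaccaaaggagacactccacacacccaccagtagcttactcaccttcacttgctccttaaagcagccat
Scd3 to Scd2, chr19:44284724-44284923: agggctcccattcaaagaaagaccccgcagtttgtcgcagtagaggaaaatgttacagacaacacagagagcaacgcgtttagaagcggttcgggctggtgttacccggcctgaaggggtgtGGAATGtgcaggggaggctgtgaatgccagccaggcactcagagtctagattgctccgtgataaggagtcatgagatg
Lrfn3 to Tyrobp, chr7:30373790-30373989: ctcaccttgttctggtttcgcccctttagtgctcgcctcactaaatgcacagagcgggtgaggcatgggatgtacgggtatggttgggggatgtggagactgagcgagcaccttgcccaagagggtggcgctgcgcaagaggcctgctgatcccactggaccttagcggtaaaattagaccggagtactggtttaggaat
Snx16 to Ralyl, chr3:11441520-11441719: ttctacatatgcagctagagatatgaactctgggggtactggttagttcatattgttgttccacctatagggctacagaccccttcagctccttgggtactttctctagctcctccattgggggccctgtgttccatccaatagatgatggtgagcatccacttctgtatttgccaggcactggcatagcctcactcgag
Chst3 to Psap, chr10:60262126-60262325: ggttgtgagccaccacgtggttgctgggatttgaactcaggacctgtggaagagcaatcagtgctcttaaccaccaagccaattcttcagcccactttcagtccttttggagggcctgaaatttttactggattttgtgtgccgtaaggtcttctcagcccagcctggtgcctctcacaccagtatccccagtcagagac
Mos to Plag1, chr4:3874916-3875115: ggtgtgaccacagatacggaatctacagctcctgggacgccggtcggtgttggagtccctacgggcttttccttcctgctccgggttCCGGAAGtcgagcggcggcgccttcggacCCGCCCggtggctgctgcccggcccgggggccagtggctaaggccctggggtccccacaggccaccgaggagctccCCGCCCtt
Itpr2 to Ints13, chr6:146519463-146519662: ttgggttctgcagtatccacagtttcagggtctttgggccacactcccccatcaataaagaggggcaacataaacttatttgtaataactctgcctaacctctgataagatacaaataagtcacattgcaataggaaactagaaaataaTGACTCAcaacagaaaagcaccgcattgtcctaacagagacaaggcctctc

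The Krt78 to Krt8 window held a CTCF word, the Sesn2 to Atpif1 window an NFY word and the Scd3 to Scd2 window a TEAD word. The Mos to Plag1 window held an ETS word beside 2 SP/KLF words. No searched word occurred in the windows of Wnt7b to Ppara, Lrfn3 to Tyrobp, Snx16 to Ralyl or Chst3 to Psap. Over all 465 windows, 305 (65.6%) held none of the 11 motifs, 120 held 1 and 40 held more.

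Signal was read as the deposited tag count, the tags at a peak per 10000000 tags of the library. It had a median of 12.5 over the peaks between genes (95% interval of the median 12.3 to 13.0), with quartiles at 10.6 and 15.2 and a range from 7.46 to 30.8. The library held 20765512 tags, so that the median tag count corresponds to 26.0 tags and the extremes to 15.5 and 64 tags. These are not the tags of the authors' threshold of 18, which matches the lowest value of their score column. The intronic distal peaks had the same median of 12.5 (12.3 to 13.0, n = 430), whereas the proximal peaks had a median of 14.7 (14.7 to 14.9, n = 3382). The highest tag count was 30.8 between genes, 85.2 in introns and 112.4 near a TSS.

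Between genes the peaks stood at a median of 8.31-fold over input (7.79 to 8.93), those in introns at 7.59-fold (7.16 to 8.25) and those near a TSS at 9.03-fold (8.72 to 9.35). At least 8-fold over input was reached by 55.9% of all 4311 peaks and by 246 of the 465 between genes (52.9%, 48.4 to 57.4). That share is near the background, and for the intronic peaks it was 46.7% (42.1 to 51.5). Over the surrounding 10 kb, the median fold was 4.75 between genes, 4.66 in introns and 5.0 near a TSS, all close to the 4-fold that the authors required. Below 4.5-fold lay 164 of the 465 peaks (35.3%, 31.1 to 39.7), against 40.2% of the intronic (35.7 to 44.9), 27.4% of the proximal (25.9 to 28.9) and 29.5% of all peaks.

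The focus ratio, between 0 and 1, is HOMER's share of the tags of a peak that lie on the side of its centre that their strand calls for, as around a narrow binding site. Its median was 0.673 between genes (0.667 to 0.679), 0.679 in introns (0.671 to 0.685) and 0.667 near a TSS (0.663 to 0.667). The interval of the intronic median lay above that of the proximal one, while the interval between genes overlapped the intronic and met the proximal at 0.667. Single peaks between genes had an SD of 0.0587 around their mean. A binomial SD for 0.673 of 26.0 tags would be 0.0921, more than the spread observed, so a binomial error was not used for the ratio of a single peak and none is given. Across the 465 peaks the ratio was weakly and inversely related to the tag count (Spearman rho = -0.15, a description over peaks of 1 library) and not to the distance to a TSS (rho = 0.01). The 11 peaks with a ratio over 0.8 had tag counts from 9.63 to 14.9, below the upper quartile of 15.2, while the 20 peaks with the most tags had ratios from 0.588 to 0.739.

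**Figure D1:**
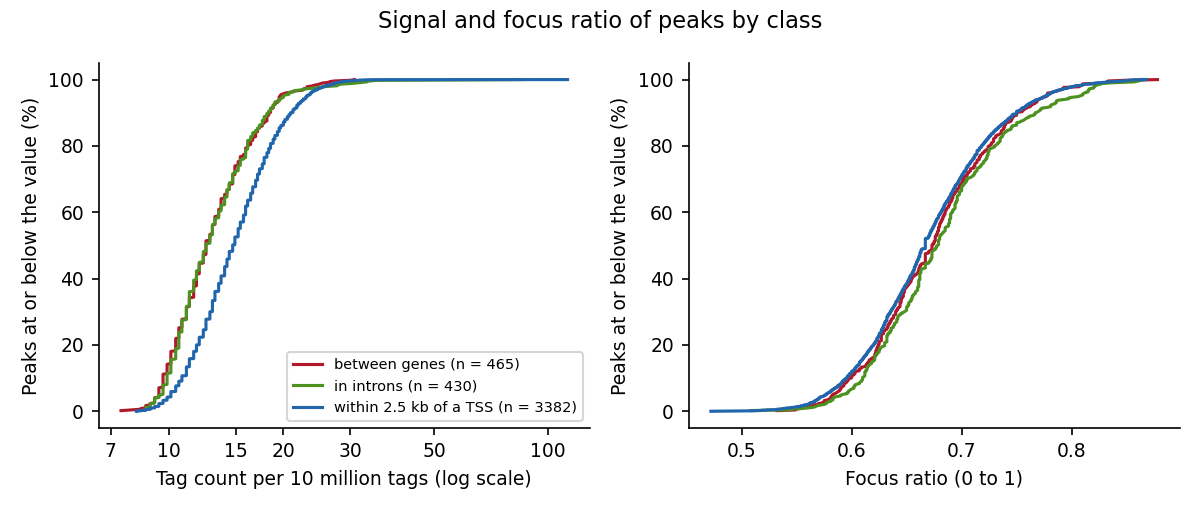
Cumulative share of peaks (%) against the tag count per 10000000 tags (left, log scale) and against the focus ratio (right, 0 to 1), for 465 distal peaks between genes, 430 in introns and 3382 within 2.5 kb of a TSS. The curves of both distal classes run together at a median of 12.5 tags and the proximal curve lies to their right at 14.7, while the 3 focus ratio curves nearly coincide between medians of 0.667 and 0.679.

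The highest tag count, 30.8 (64 tags, exact Poisson interval 49.3 to 81.7), was found between Wnt7b, a WNT ligand, and Ppara, the nuclear receptor of fatty acid catabolism in fasting. This peak (chr15:85634961-85635441) lay 52.7 kb from Wnt7b and 99.8 kb from Ppara, 10.9 kb from the nearest TSS, of Gm49539, and was 19.9-fold over input with a focus ratio of 0.687. In the RefSeq annotation its centre lay inside a transcript, and the non-coding gene D130051D11Rik starts 0.605 kb away. Next came the peak between the keratin genes Krt78 and Krt8 (chr15:101976903-101977383), with 30.1 (62.5 tags, 48.0 to 80.0), a fold of 7.79 and a focus ratio of 0.701. The centre of the Krt78 to Krt8 peak also lay inside a RefSeq transcript. The Poisson intervals of these peaks overlapped, so their order could not be told.

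The peak with the third highest tag count lay 3.95 kb upstream of the TSS of Sesn2 (chr4:132514206-132514686). Sesn2 encodes sestrin 2, a stress-induced inhibitor of mTORC1 and a known FOXO target. The peak had a tag count of 27.2 (56.5 tags, 42.7 to 73.3), was 23.5-fold over input and 5.26-fold over its surroundings, and had a focus ratio of 0.717. No peak lay within 2.5 kb of a TSS of Sesn2 or of Atpif1, the inhibitor of the mitochondrial ATP synthase, which flanked it on the other side at 16.1 kb. The nearest RefSeq TSS was that of the transfer RNA gene n-TAagc8, 1.56 kb away. The central 200 bp of the peak held no FOXO word.

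Another 6 of the 10 highest tag counts ranged from 26.5 to 23.8. These peaks lay between Zc3h3 and Gsdmd (the pyroptosis pore protein), B4galt1 (a Golgi galactosyltransferase) and Spink4, Tars (threonyl-tRNA synthetase) and Npr3, Nacc2 and Lhx3, Rbfox2 (a splicing factor) and Apol7a, and Cyb5b and Nfat5 (a transcription factor of the osmotic stress response). Their folds over input ran from 5.40 at Nacc2 to 15.9 at Rbfox2, and their focus ratios from 0.588 at Nacc2 to 0.708 at Zc3h3. Of the 10 highest, 5 lay on chromosome 15, where the tag count of all 192 peaks also had a high median, 18.1. At the low end, the peak between Fam110c and Gm6993 had 7.46 (15.5 tags), that between Kcnv1 and Csmd3 had 7.95 (16.5 tags) and that between Fbn2 and Slc27a6 had 8.43 (17.5 tags).

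None of the 5 highest folds over input was among the 10 highest tag counts. The highest fold was 57.9, at a peak 8.85 kb upstream of Scd2 (chr19:44284584-44285064), with a tag count of 22.4 and a focus ratio of 0.664. Scd2 and its neighbour Scd3 encode stearoyl-CoA desaturases, which make monounsaturated fatty acids. A further peak between Scd3 and Scd2, 17.0 kb away (chr19:44267622-44268102), had a fold of 46.7, a tag count of 18.1 and a focus ratio of 0.590, and Scd2 itself also had a promoter peak. The others were peaks between 1110038F14Rik and Mb (48.6-fold), between Atp23 and Ctdsp2 (48.0-fold) and between Ipmk and Zwint (43.6-fold). Over the surrounding 10 kb, the peak near Scd2 was only 4.07-fold, and across the 465 peaks the tag count and the fold over input were nearly unrelated (rho = 0.08).

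The highest focus ratio was 0.878, between Lrfn3 and Tyrobp (chr7:30373650-30374130), 11.1 kb from the TSS of Lrfn3. This peak had a tag count of 10.4 (21.6 tags), a fold over input of 13.4 and, with 10.5, the highest fold over its surroundings of the 465. Then followed the peaks between Prlhr and Cacul1 (0.849), between Tars and Npr3 (0.833, a different peak from that with 25.3 tags per 10000000) between Rnf168 and Ubxn7 (0.833) and between Arap3 and Pcdh1 (0.831). Each of these rested on 20 to 26.0 tags.

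The nearest TSS lay at a median of 15.1 kb (13.8 to 17.7), with quartiles at 7.56 and 31.1 kb and a range from 2.52 to 272.5 kb. Within 10 kb lay 162 peaks (34.8%, 30.6 to 39.3), and over 50 kb lay 67 (14.4%, 11.5 to 17.9). The sequence that could hold such a peak, over 2.5 kb from every TSS and in no transcript, amounted to 1321 Mb, or 49.9% of the called bases of the assembly. Per Mb of it there were 0.352 peaks (0.321 to 0.385), against 0.477 (0.435 to 0.522) in transcribed distal sequence and 9.57 (9.25 to 9.90) within 2.5 kb of a TSS. The density between genes was not even. It was 0.532 per Mb at 2.5 to 5 kb from a TSS, 0.585 at 5 to 10 kb, 0.468 at 10 to 25 kb, 0.275 at 25 to 50 kb, 0.201 at 50 to 100 kb and 0.111 (0.0676 to 0.171) beyond 100 kb. The intervals of the 3 classes up to 25 kb overlapped each other, and none of them overlapped those of the 3 classes beyond.

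**Figure D2:**
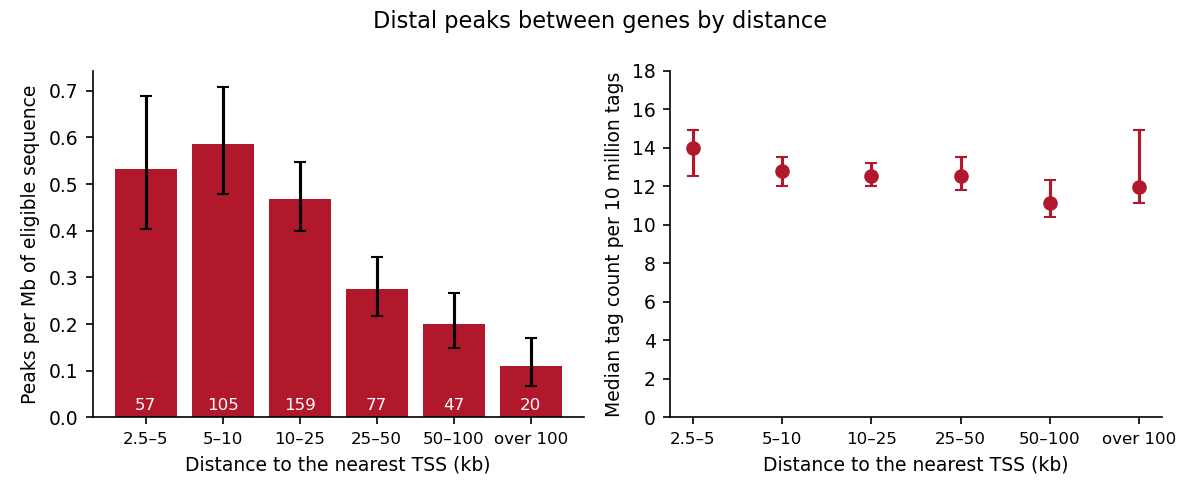
Distal peaks between genes per Mb of eligible sequence (left, bars from 0 with exact 95% Poisson intervals, the number of peaks in each bar) and their median tag count per 10000000 tags with its 95% interval (right), by distance to the nearest TSS in kb. Density drops from 0.585 at 5 to 10 kb to 0.111 beyond 100 kb, while the median tag count stays between 11.1 and 14.0.

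The tag count itself moved little with distance. Its median was 14.0 (12.5 to 14.9) at 2.5 to 5 kb, 12.8 at 5 to 10 kb, 12.5 in both classes from 10 to 50 kb, 11.1 (10.4 to 12.3) at 50 to 100 kb and 12 (11.1 to 14.9) beyond 100 kb (rho = -0.13 over the 465 peaks). The median focus ratio ranged only from 0.661 to 0.695 over the 6 classes. Median GC content moved with distance as well, from 48.2% in the nearest class to 43.7% in the farthest, and its part in the density was not tested. Just inside the limit of 2.5 kb, peaks 2515 bp from Tac4, 2571 bp from Gm44427 and 2586 bp from Hspd1-ps5 had tag counts of 10.6, 10.4 and 14.4. Just outside it and in no transcript, peaks 2290 bp from Rn7s2, 2273 bp from Gm32939 and 2217 bp from Hspa5 had 16.4, 11.1 and 20.

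The nearest TSS belonged to a protein-coding gene for 185 peaks (39.8%, 35.4 to 44.3), to a processed pseudogene for 103 and to a lincRNA for 83. The peak was on the upstream side of it in 267 cases and downstream in 198. RefSeq annotates additional transcripts in the same build. Of the 465 peaks, 71 lay inside a RefSeq transcript and 58 within 2.5 kb of a RefSeq TSS, 99 in either (21.3%, 17.8 to 25.2). These 99 had the same median tag count as the other 366, 12.5, with a median GC content of 49.9% against 46.4%.

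Protein-coding neighbours were taken on both sides, since an enhancer can act past the nearest gene. The interval between the flanking protein-coding genes was 113.2 kb long at the median (quartiles 44.8 and 368.4 kb), and the nearer and farther gene lay at medians of 22.9 and 79.9 kb. The flanking genes were transcribed in the same direction for 258 peaks (55.5%), away from each other for 135 (29.0%) and towards each other for 72 (15.5%). Per Mb of eligible sequence these were 0.370 (0.326 to 0.418), 0.382 (0.320 to 0.452) and 0.271 (0.212 to 0.341) peaks. Between genes transcribed towards each other the density was lowest, with an interval that just overlapped both of the others. Distance to a TSS and GC content were not held equal here, and their part in it was not tested.

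Promoter peaks at the neighbours were about as frequent as at any gene. Over the whole annotation, 17.1% of 21951 protein-coding genes had a peak within 2.5 kb of a TSS. Among the 930 flanking positions, 176 (18.9%, 16.5 to 21.6) were filled by a gene with such a peak. Both neighbours had one at 16 of the 465 peaks, 1 of them at 144 and neither at 305 (65.6%, 61.2 to 69.8). Where the nearest TSS belonged to a protein-coding gene, that gene had a promoter peak in 32 of 185 cases (17.3%, 12.5 to 23.4), against 59 of 267 for the intronic peaks (22.1%, 17.5 to 27.5). Over nearest genes of every biotype the count was 38 of 465 (8.17%, 6.01 to 11), against 61 of 430 for the intronic peaks (14.2%, 11.2 to 17.8). The share of genes of every biotype with a promoter peak was not computed. The 17.1% above is for protein-coding genes only and is no background for the 8.17%. An example with both neighbours is the peak between Ccdc9 and Bbc3, the p53 and FOXO target PUMA, with a tag count of 20, a focus ratio of 0.750 and distances of 10.5 and 11 kb.

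The flanking genes were then read against 6 lists of genes of the tissue and pathway. Among all 21951 protein-coding genes, 832 (3.79%) flanked a distal peak between genes, and the density beside them all was 0.353 peaks per Mb of eligible sequence (0.322 to 0.387). Longer intervals collect more peaks, so densities are given beside the counts. A listed gene counts as flanking at any distance, also where the gene on the other side or a non-coding TSS is nearer. The lists were chosen with results of these data known, and no test was made of them.

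Of 55 autophagy and lysosome genes, 3 flanked a peak, 0.442 per Mb (0.0911 to 1.29). Psap, which encodes the precursor of the saposins that activate lysosomal lipid hydrolysis, had a peak 15.4 kb upstream (chr10:60261986-60262466) with a tag count of 19.5, a fold over input of 16.8 and a focus ratio of 0.640. Soft-masked bases, which mark repeats, made up 60.5% of this peak, against a median of 14.8% between genes. Ctsd, the lysosomal protease cathepsin D, had a peak 4.99 kb upstream with a tag count of 14.7 (9.50-fold). Bnip3, a receptor of mitophagy, had a peak at 10.4 kb with a tag count of 9.39 (4.15-fold). Of 28 genes of FOXO factors and their targets, 3 flanked 4 peaks, 0.775 per Mb (0.211 to 1.98). Beside Sesn2 these were Irs2, the insulin receptor substrate, with tag counts of 14.7 and 10.4 at 32.1 kb and 155.2 kb, and Cat, encoding catalase, with 9.63 at 69.4 kb. Bbc3, named above as a FOXO target, was not on the list.

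Of 35 immediate early and AP-1 genes, 9 flanked 13 peaks, 1.5 per Mb (0.799 to 2.57), the highest density of the 6 lists. The tag counts of the 13 had a median of 12.5, that of all 465. Klf4, a zinc finger factor, had peaks with 17.1 and 11.1 at 119.4 and 175.1 kb. Zfp36l2, which binds AU-rich messenger RNAs, had peaks with 16.9 and 16.4, at 193.0 and 322.2 kb. Both lay nearer to Haao on the other side, at 143.0 and 13.8 kb, and the second lay 267 bp from a transfer RNA gene. Dusp4, a MAP kinase phosphatase, had 3 peaks with 15.7, 12.3 and 11.1 at 224.1 to 519.9 kb. In this interval of 636.5 kb the peak with 12.3 lay nearer to Saraf, the other flank, at 239.0 kb. The peak with 11.1, at 519.9 kb from Dusp4, was likewise nearer to Saraf. Fos and Myc had peaks with 11.3 at 19.0 kb and with 10.4 at 1167 kb.

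Of 46 mesenchymal transcription factor genes, 12 flanked 14 peaks. Their density of 0.573 per Mb (0.313 to 0.961) had an interval that reached below that beside all genes, and the intervals beside these genes were long, 130.7 kb at the median against 16.9 kb for all protein-coding genes. The highest tag count among the 14 was 16.9, beside Snai2, the repressor of epithelial genes, at 118.5 kb. Next were the peaks beside Gata6 described at the end, a peak with 14.9 at 626.3 kb from Shox2 and a peak with 13.7 at 93.3 kb from Meis1, both homeobox factors. The peak beside Snai2 lay nearer to Efcab1, its other flank, at 78.7 kb, and 66.9% of its bases were soft-masked. The peak beside Shox2 lay nearer to Veph1, its other flank, at 48.6 kb. Of 50 extracellular matrix genes, 7 flanked 7 peaks (0.575 per Mb, 0.231 to 1.18), with tag counts from 15.2 beside the collagen gene Col1a2, at 85.0 kb, down to 8.43 beside the fibrillin gene Fbn2. Between these were 13.7 at 1345 kb from the protease gene Adamts5 and 12 at 53.9 kb from Ccn1, a YAP target that encodes a matrix protein. A peak 23.5 kb from the collagen gene Col5a2 had 11.8. The Adamts5 peak lay nearer to N6amt1, its other flank, at 107.7 kb, and 0.181 kb from the RefSeq TSS of Gm41484. Of 38 TGF-beta, BMP, WNT and YAP genes, 7 flanked 6 peaks (0.724 per Mb, 0.266 to 1.58). The highest were 19.7 at 25.2 kb upstream of Lef1, the nuclear partner of beta-catenin, and 16.9 at 11.4 kb from Ski, a repressor of SMAD signalling that had a promoter peak too. The peak beside Ski lay 0.134 kb from the RefSeq TSS of Gm52713. A peak between Smad3 and Smad6 had 13.7 and was 18.1-fold over input, and a peak 52.6 kb from Wwtr1, which encodes TAZ, had 12.5. This last peak lay nearer to Commd2, its other flank, at 15.8 kb, and 52.4% of its 32-base stretches occurred elsewhere in the genome.

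**Figure D3:**
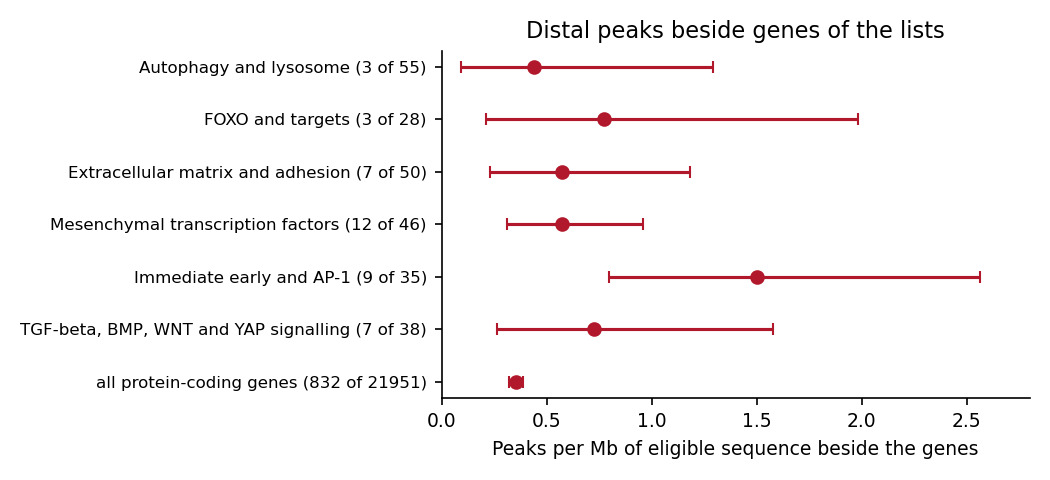
Distal peaks per Mb of eligible sequence in the intervals beside the genes of 6 lists and beside all protein-coding genes, with exact 95% Poisson intervals. In parentheses is the number of genes that flanked a peak, of those annotated. The point for immediate early and AP-1 genes is the farthest right at 1.5 and the only 1 of the 6 whose interval lies wholly above that of all genes, 0.322 to 0.387.

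Peaks of every class were mostly alone. Between genes the nearest other peak of any class lay at a median of 114.4 kb, and within 25 kb for 69 of the 465 (14.8%, 11.9 to 18.4), against 14.4% of intronic peaks (11.4 to 18.1), 18.4% of proximal peaks (17.1 to 19.7) and 17.6% of all peaks. Linking members at most 25 kb apart gave 10 pairs and no larger group, with 445 peaks alone. The closest pair lay 1.07 kb apart between Plpp7 and Prrc2b (chr2:32137304-32138858), with tag counts of 18.3 and 17.8 and folds over input of 23.7 and 23.1. A pair beside Lif, a cytokine of the interleukin 6 family, was spaced 10.3 kb apart with tag counts of 18.1 and 15.2 and folds of 23.4 and 19.6. Within other pairs the folds differed more, as between Rap2a and Ipo5 (5.34 and 17.1). The 465 peaks fell into 428 intervals, and 3 intervals held 3 or more. The fullest was that between Cdkn2b, an inhibitor of the cell cycle kinases CDK4 and CDK6, and Dmrta1, with 4 peaks in 368.4 kb and tag counts from 8.91 to 13.2.

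Sequence between genes is AT-rich, and the peaks in it were richer in GC. The mean GC content of the central 200 bp was 48.0%, against 40.8% over 6575842 eligible windows of 200 bp. At least 50% GC was found in 38.9% of the peaks and in 11.2% of the windows, and under 40% in 13.5% and 46.9%. Over the whole peak, median GC content was 46.8% (46.2 to 47.8) between genes, 46.2% in introns and 55.9% near a TSS. Few of the peaks were rich in CpG, as the islands at many promoters are. Over 50% GC with a CpG ratio over 0.6 (observed over expected) was met by 27 of the 465 (5.81%, 4.02 to 8.32), by 5 of the 430 intronic peaks (1.16%, 0.498 to 2.69) and by 50.8% of the proximal peaks. These 27 had a median tag count of 13.7 (12.5 to 16.4) against 12.5 (12 to 12.8) for the others, and 11 of them lay within 2.5 kb of a RefSeq TSS.

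Repeats took up a modest part. Soft-masked bases made up a median of 14.8% of a peak between genes, 13.6% in introns and 6.44% near a TSS. More than 50% of the 32-base stretches occurred elsewhere in the genome in 9 of the 465 peaks (1.94%), 11 of the intronic and 30 of the proximal ones. The Snx16 to Ralyl peak shown above was among the 9, with 56.4% of its stretches repeated and a tag count of 9.63. Transfer RNA genes, which are transcribed by RNA polymerase III and are missing from the transcript set used, lay within 1 kb of 4 peaks (0.860%), against 2 intronic (0.465%), 5 proximal (0.148%) and 11 of all 4311 peaks (0.255%). The 4 had tag counts of 19.3 (between Zfp184 and Pom121l2), 16.4 (Haao and Zfp36l2), 12.8 (Ctc1 and Aurkb) and 10.8 (Rnase12 and Olfr750).

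The motif words were searched in the central 200 bp on both strands. They were GTAAACA (FOXO), TGANTCA (AP-1), CNAGGGGGC or CNAGGTGGC (CTCF), GGAATG (TEAD), TGTGGTT (RUNX), TCACGTG (TFEB), TGACGTCA (CREB), GATTGG (NFY), GGGCGG (SP/KLF), CCGGAAG (ETS) and GCGGGAA (E2F). None of these words contains another. Each share was set beside that in all eligible windows of the same length, standardised to the GC content of the peaks. The CpG ratio and the repeat content of the windows were not held equal, and their part in any difference was not tested. A word is a match of letters and not a bound site. Other spellings of a motif were not searched, so the shares do not count them.

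The FOXO word was found in 12 of the 465 peaks between genes (2.58%, 1.48 to 4.46), in 3.72% of the intronic and 1.77% of the proximal peaks, and in 2.34% of the standardised windows. That share was therefore not distinguishable from the windows at this number of peaks. The same held for AP-1 (31 peaks, 6.67%, windows 5.43%), TEAD (12%, windows 12%), RUNX (3.23%, windows 4.04%), TFEB (7 peaks, 1.51%, windows 0.886%), E2F (5 peaks, 1.08%, windows 0.612%) and CTCF (9 peaks, 1.94%, 1.02 to 3.64, windows 1.21%). Without the standardisation, 0.593% of the windows held the CTCF word and 1.34% the SP/KLF word. The AP-1 share was above that of the proximal peaks, 2.37% (1.90 to 2.93), as was that of the intronic peaks, 7.44% (5.32 to 10.3). The ETS word, read by a family of factors at many promoters, was found in 12 peaks (2.58%, 1.48 to 4.46) and lay above the windows with 1.27% and below the proximal peaks with 5.26%. Of the intronic peaks 0.930% held it (0.362 to 2.37), an interval that included the share of the windows. The intervals are not adjusted for the 11 motifs. The SP/KLF word, bound at GC boxes, was found in 29 peaks (6.24%, 4.38 to 8.81), just above the windows with 4.29% and far below the 25.8% of the proximal peaks. The share of the intronic peaks was close to it, 6.28% (4.35 to 8.98). Of these 29 peaks, 8 were among the 27 rich in CpG. NFY was found in 25 (5.38%, 3.67 to 7.82), just below the windows with 8.05%. The intronic (3.26%), the proximal (5.09%) and all peaks (4.89%) were below these windows as well. The CREB word was not found in any of the 465 windows, with a Wilson upper limit of 0.819% (3 counts of 465 would be 0.645%). The word was rare elsewhere too, in 0.164% of the standardised windows, 0.233% of the intronic, 0.325% of the proximal and 0.278% of all peaks. Each of these shares lay below that limit, so the absence was not distinguishable from them.

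**Figure D4:**
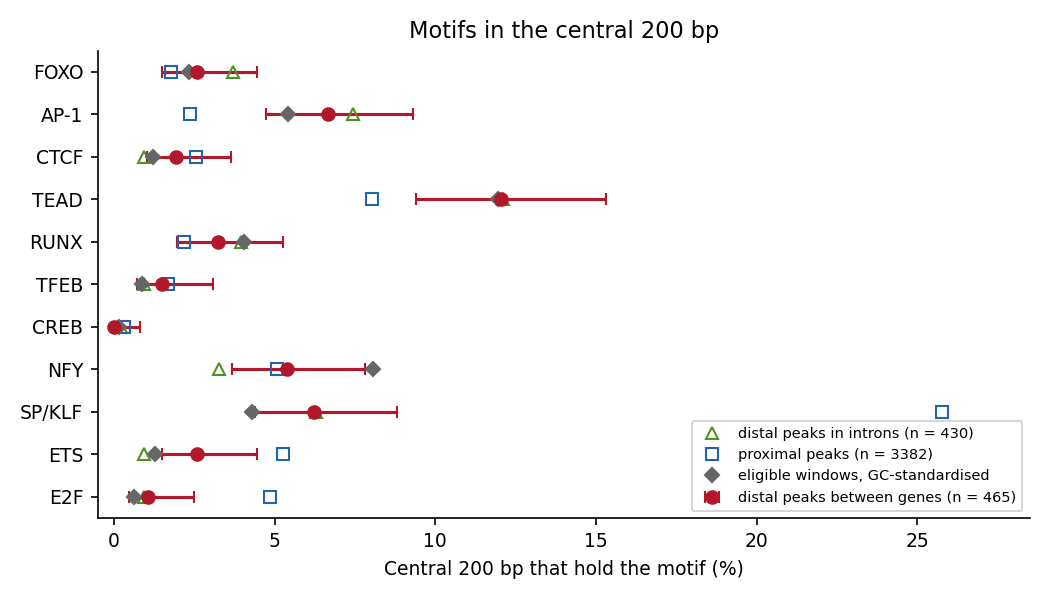
Share of peaks (%) whose central 200 bp hold each motif word, with 95% Wilson intervals for the 465 distal peaks between genes, and the shares for 430 intronic and 3382 proximal peaks and for eligible windows standardised to the GC content of the peaks. Most filled circles lie on the grey diamonds, ETS (2.58% against 1.27%) lies to the right of its diamond, NFY (5.38% against 8.05%) to the left, and the proximal share of SP/KLF stands at 25.8%.

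By chromosome, the most peaks between genes were on chromosome 3, with 43, and the densest were chromosome 11, with 32 (0.633 per Mb, 0.433 to 0.894), and chromosome 15, with 31 (0.626 per Mb, 0.426 to 0.889). On chromosome 1 there were 16 (0.163 per Mb, 0.0933 to 0.265). The X chromosome held 3 peaks in 105.1 Mb of eligible sequence (0.0285 per Mb, 0.00589 to 0.0834) and 43 peaks of any class, and the Y chromosome held none. The peaks of chromosome 15 between genes had a median tag count of 14.9 and a maximum of 30.8. On chromosome 8 all 248 peaks had a median of 18.5, the highest of any chromosome, while the 30 between genes there had 12.5. Copy number of these chromosomes in the cells, and the share of eligible sequence to which reads can be assigned, were not measured here and their part in these values was not tested.

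Of the 5 peaks farthest from any annotated TSS, 2 lay between Gata6, a zinc finger factor of mesoderm and endoderm, and Rbbp8 on chromosome 18, at 272.5 and 206.7 kb from a TSS. Their tag counts were 16.1 and 13.7, their folds over input 20.9 and 5.92, and their focus ratios 0.578 and 0.662. The nearest RefSeq TSS, of Gm35918, lay 49.5 kb and 16.3 kb from them. Gata6 lay 266.8 and 332.6 kb from them and Rbbp8 280.9 and 215.1 kb, so that the second was nearer to Rbbp8. The other 3 were the repeat-rich peak between Snx16 and Ralyl (217.9 kb), a peak between Eno1b and Dtwd2 (201.1 kb, tag count 11.3) and a peak between Unc5d and Dusp26 (176.2 kb, tag count 11.1). Rbbp8 and Dtwd2 had promoter peaks, whereas Gata6, Snx16, Ralyl, Eno1b, Unc5d and Dusp26 had none.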

How the data were processed

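The authors aligned reads to GRCm38 (mm10) with Bowtie2 and called peaks of 481 bp with HOMER 4.7.2 findPeaks. They required a false discovery rate of 0.001 (threshold 18 tags), and 4-fold with p at most 0.0001 over input and over the surrounding 10 kb. From 13480 putative peaks 4311 remained, and regions below these limits could not be examined. The deposited signal is the tag count per 10000000 of 20765512 tags, the deposited focus ratio is a fraction, the deposited score was used only to take the upper part of the list, and the folds are ratios that the authors computed. Of the per-peak tag columns, 1 could not be assigned to a library and was not used.

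Centres were annotated with GENCODE vM21, and additionally with RefSeq of the same build. Sequence came from the GRCm38 assembly. Tags of a peak were recovered from the rounded signal. Densities used all eligible bases and motif shares all eligible windows of 200 bp, standardised in GC bands of 5 percentage points. Shares have 95% Wilson intervals, medians order-statistic intervals, and densities and tags exact Poisson intervals, all for counting error only. No test was made, since 1 library without a replicate allows none. A member was linked to others within 25 kb. Code was tested on simulated data and run in Python with NumPy, SciPy and numba.

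The peaks, motifs and gene lists were chosen with earlier results of these data known. The peaks named were the 10 highest tag counts (1 of them is not reported here), the 5 highest folds over input, the 5 farthest from a TSS, the 5 highest focus ratios, the 3 lowest tag counts, the pairs, and up to 4 beside genes of each list. The peaks beside Fos, Myc and Dusp4 with lower tag counts, the Ccdc9 to Bbc3, Mos to Plag1 and Itpr2 to Ints13 peaks and those near transfer RNA genes were chosen after their values were seen.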

Additional observations from a re-analysis of the deposited data

How the results depend on the processing

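The 7 main values were recomputed in 59 reruns, and 47 stayed inside the interval of the value as reported (counts within 1.5 times). With a distance limit of 1 kb or 5 kb, the median distance to a TSS became 13.5 kb or 18.4 kb. With protein-coding transcripts only, 673 peaks qualified, since transcripts of other biotypes no longer excluded any. In this larger set with fewer TSSs, the median distance rose to 29.99 kb and the share of peaks over 50 kb to 37.0%. The share whose nearest gene had a promoter peak was 18.7%, with every nearest gene protein-coding. For the 185 peaks with a protein-coding nearest gene in the main setting it was 17.3%. Among peaks at least 8-fold over input, 246 were between genes and 5.69% had a nearest gene with a promoter peak. That promoter peak also had to be at least 8-fold over input. Among the better-scored 50% of all peaks, 152 were between genes, with a median tag count of 16.9, a median distance of 12 kb, a median focus ratio of 0.651 and 8.55% over 50 kb. The tag count and the score rank peaks almost alike (rho = 0.92), so the higher tag count follows from that choice. The difference in median tag count between the intergenic and intronic peaks was 0 and lay between -0.3 and 0.3 in every rerun. Requiring the whole peak to lie outside transcripts removed none of the 465, and leaving out repeated peaks moved none of the 7 values out of its interval. Leaving out chromosome 8, run for the median tag count, the median focus ratio and the difference from the intronic peaks, moved none of these 3. Leaving out peaks in or near RefSeq transcripts, an alternative chosen after seeing the data, left 366 peaks and moved none either. Motif shares grow with the length searched, as for AP-1 with 18.3% in whole peaks and 2.58% in the central 100 bp. No paired analysis was possible because only 1 library gave values. The depth, 26.0 tags at the median tag count, limits the order of single peaks.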
